A study of Mus musculus with 6 samples.

Results

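Transcripts of the cytosolic translation machinery were compared between mouse embryonic fibroblasts (MEFs) with a knockout of cyclophilin D (CypD) and wild-type (WT) MEFs. The genes were those whose annotated symbol starts with Rpl, Rplp or Rps (ribosomal proteins), Eif (initiation factors) or Eef (elongation factors) followed by a digit, leaving out the Rps6k kinases, Eif2s3x and Eif2s3y. Under this rule 61 genes with 86 probes were found among 7606 named genes, and all 61 were tested. MEFs are connective tissue cells grown out of minced embryos. Cyclophilin D, the product of Ppif, is a peptidyl-prolyl isomerase of the mitochondrial matrix and a regulator of the permeability transition pore. The groups were 3 arrays of CypD knockout MEFs and 3 arrays of WT MEFs, lettered A, B and C in each group. Both genotypes had a C57BL/6 background, came from E13.5 embryos and were kept in DMEM with 10% foetal calf serum. Whether the letters stand for separate embryos, litters or cultures is not given in the labels, so p-values measure the spread between arrays alone, and that spread may be technical.

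Ribosomes are built from a small subunit, which reads the mRNA, and a large subunit, which joins amino acids. Initiation factors bring the initiator tRNA, the mRNA cap and the small subunit together, and elongation factors deliver tRNAs and move the ribosome along. In growing cells such as fibroblasts, many ribosomal protein mRNAs begin with a run of pyrimidines, the terminal oligopyrimidine (TOP) motif, through which mTOR signalling controls their translation.

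Names were available only for probes of the authors' processed table, and those probes had a highest signal at least 1.20 times the lowest over the 6 arrays. Ribosomal protein and factor genes outside that table, among them Eif2ak3, Eef1a1 and Eef1a2, were not analysed here. Background shares are therefore given over all named genes. Among the probes kept on the whole array, 5423 of 27168 (20%) differed between genotypes at an adjusted p under 0.05, by limma with Benjamini-Hochberg adjustment over all probes kept. Among named genes the share was 43.6%.

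Ppif itself read 12.25, 12.35 and 12.18 (log2 intensity) on the CypD knockout arrays A, B and C, against 13.57, 13.70 and 13.62 on the WT arrays. It was 2.59-fold lower in the knockout, with a log2 fold change of -1.37 ± 0.07 (SE) and an adjusted p of 2.96e-09. The Ppif signal in the knockout stayed bright, at the 93.7th percentile among all probes. Where the probe lies relative to the targeted part of the gene was not examined. Normalized log2 values correlated across probes at 0.996 within the knockout, at 0.994 to 0.996 within WT and at 0.982 to 0.984 between groups. Median raw intensities were 226 to 229 in the knockout and 223 to 251 in WT. Of 13 fibroblast markers 10 were tested, of which 4 were higher in the knockout, 4 were lower and 2 did not pass. Their summed intensities were 32588 to 37000 in the knockout and 39177 to 40410 in WT. All 3 neural markers tested (of 8 listed) were lower in the knockout, with sums of 1764 to 1870 in the knockout and 5581 to 6250 in WT. Epithelial markers had 3 of 9 tested (Spint1 higher, Krt19 lower, Cdh1 not passed), with sums of 1822 to 1935 in the knockout and 1372 to 1425 in WT. Endothelial markers had 2 of 8 tested, of which Eng was higher, and skeletal muscle markers had 2 of 6 tested, of which Acta1 was lower. Leukocyte markers had 2 of 12 tested, and neither passed (adjusted p of 0.0824 for Cd14 and 0.12 for Coro1a). None of 5 erythroid markers had a tested named probe. The part of these markers in the results was not tested, and in bulk cultures fewer cells of a type and less RNA per cell cannot be told apart.

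One WT array stood apart. On WT C, 442 probes (1.63% of those kept) lay more than 0.5 log2 units below both other WT arrays, against 20 to 69 probes on each of the other 5 arrays relative to its own group. These included 8 of the 86 probes described here: all 3 probes of Eef2, both of Eif5a, the brightest probes of Eif4a2 and Eif4g2, and the second probe of Eif4b. Results that rest on these probes are given with and without WT C. Without WT C 25 genes were called, against 24 with all arrays.

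In the full comparison 24 of the 61 genes (39.3%) passed the test, set against 43.6% of all named genes. Of these, 10 (16.4%) were higher in the CypD knockout and 14 (23%) were lower, set against 21.8% of named genes in each direction. The median log2 fold change was -0.07, and that of all named genes was 0.01. Under median scaling in place of quantile normalization the split was 6 higher and 19 lower, and the median was -0.12. The counts also depended on single arrays, since 14 genes passed without knockout B and 12 without knockout C. Changes were mostly small: the called genes differed by 1.12-fold to 2.14-fold, with a median of 1.24-fold. In all, 5 genes (8.2%) were both called and changed at least 1.5-fold, against 14.1% of named genes, and these were Rpl29, Rps20, Rps13, Rpl37 and Rps19bp1. Without background correction or with the authors' processed table the count was 3, because Rps20 (1.38-fold and 1.39-fold) and Rpl37 (1.40-fold and 1.41-fold) stayed called but lay under 1.5-fold. Among the called genes the knockout and WT arrays overlapped for Rps3 and Eif4ebp2. A call with 3 arrays per group itself favours separate groups, so separation is no added evidence. Its share over all named genes was not counted.

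**Figure D1:**
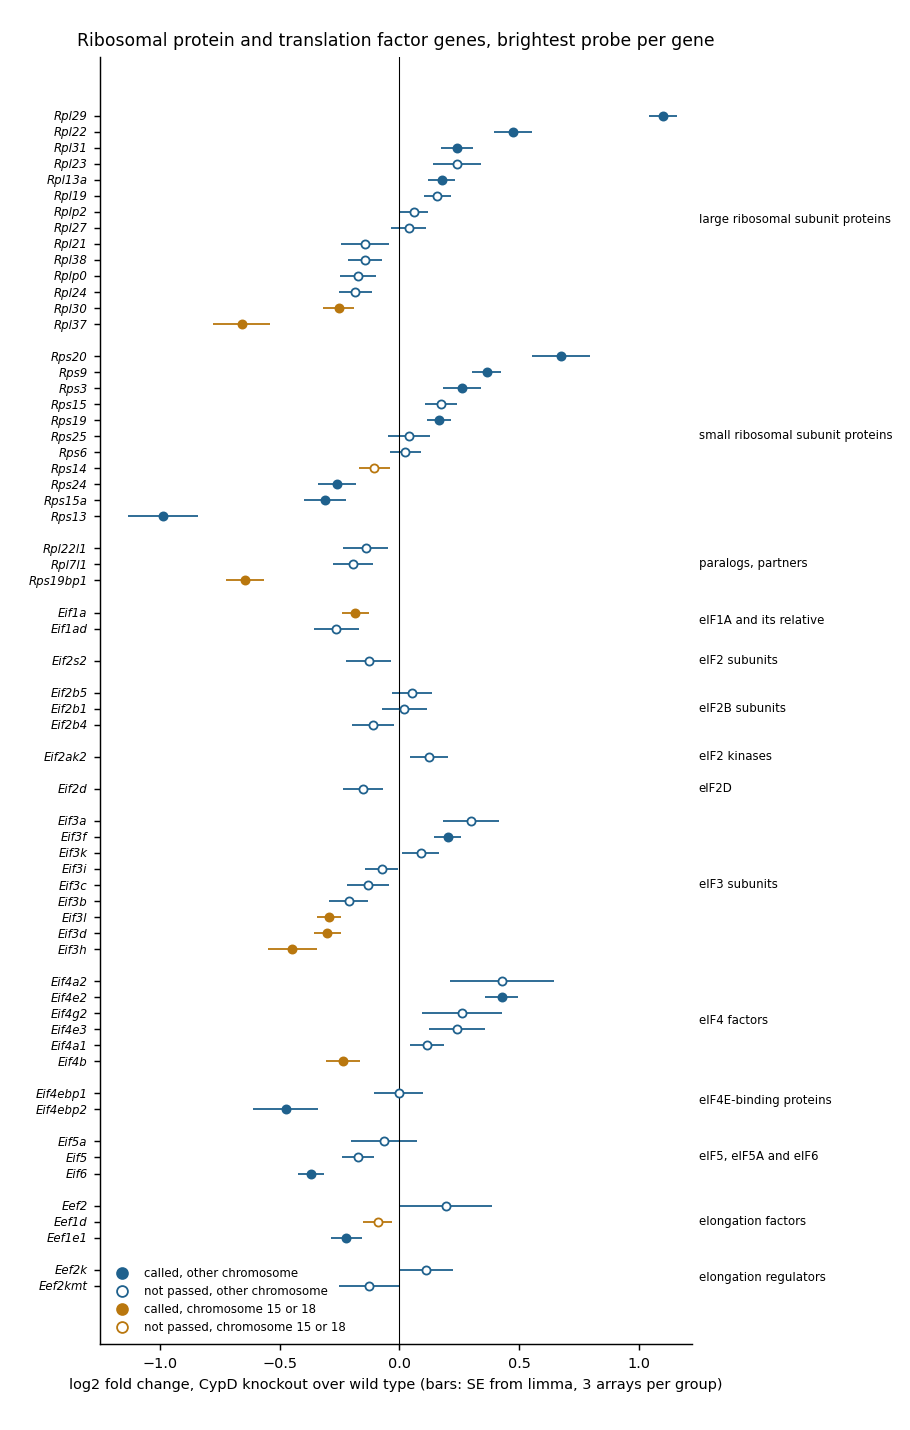
Log2 fold change (CypD knockout over WT) of the brightest probe of each of the 61 genes, grouped by role, with bars for the SE and filled points for an adjusted p under 0.05. Rpl29 lies farthest to the right at 1.10 and Rps13 farthest to the left at -0.99, and each point drawn in the colour of chromosomes 15 and 18 is below 0.

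Start-site sequences are shown for called ribosomal protein genes with a single annotated start, because the TOP motif lies there. Windows of 30 bases, 15 on each side of the RefSeq start (GRCm38.p6), were taken from RefSeq and searched on the sense strand for a C followed by at least 4 bases that are each C or T. Capitals mark the longest such run in each window, shorter ones are left in lower case, and a sequence without capitals has none. The genes that were higher in the knockout were these.
Rpl13a, chr7:45128731-45128760, minus strand: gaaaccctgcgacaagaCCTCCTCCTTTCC
Rpl31, chr1:39367836-39367865, plus strand: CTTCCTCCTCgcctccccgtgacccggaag
Rps3, chr7:99483695-99483724, minus strand: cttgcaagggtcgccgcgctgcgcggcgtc
Rps9, chr7:3704026-3704055, plus strand: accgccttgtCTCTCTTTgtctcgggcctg
The genes that were lower in the knockout were these.
Rpl37, chr15:5116598-5116627, plus strand: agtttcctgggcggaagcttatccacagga
Rps13, chr7:116334176-116334205, minus strand: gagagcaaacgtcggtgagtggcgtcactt
Rps15a, chr7:118116133-118116162, minus strand: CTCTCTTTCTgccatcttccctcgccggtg

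Windows with and without the run stood on both sides. Called ribosomal protein genes with several starts or without a window are not shown. With so few genes, whether the run goes with a direction cannot be told. Of the 61 genes, 48 had a window. Ribosomal protein genes held the run in 11 of 20 genes (55.0%) and the other genes in 8 of 28 (28.6%), against 40.3% of all 27025 genes with a window. Counted per window, the sense strand matched in 32.3% of windows of these genes and 36.4% of all windows, and the opposite strand in 40.3% and 40.8%. A match is only a run of letters at the annotated start, and annotated starts can lie some bases from those used in these cells.

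The ribosomal proteins of the large subunit numbered 14, of which 4 were higher in the CypD knockout (Rpl29, Rpl22, Rpl31 and Rpl13a), 2 were lower (Rpl37 and Rpl30) and 8 did not pass. Their median log2 fold change was 0.05, and the counts are set against 21.8% of named genes in each direction. Under median scaling the split was 2 higher and 4 lower, as Rpl31 and Rpl13a were lost and Rpl24 and Rplp0 were called lower. Many ribosomal protein genes have near-identical processed pseudogenes, and probe sequences were not used here, so a probe may also report such copies.

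Rpl29, a large-subunit protein, had the largest change. Its brightest probe read 15.41, 15.48 and 15.43 in the knockout, against 14.44, 14.23 and 14.35 in WT. All 3 knockout arrays were high and close together, with a gap to the highest WT array. The probe was 2.14-fold higher in the knockout (log2 fold change 1.10 ± 0.06, adjusted p = 7.26e-09). A second Rpl29 probe read 12.07, 12.09 and 12.20 in the knockout, against 7.70, 7.89 and 7.45 in WT. It was 21.7-fold higher in the knockout (log2 fold change 4.44 ± 0.11, adjusted p = 3.52e-12), and the fold changes of the probes differed by 3.34 log2 units. In WT the second probe averaged at the 65.8th percentile among all probes. No detection values were used here, so whether it was above background in WT was not tested, and the size of its fold rests on that level. Across the alternatives the log2 fold change stayed between 1.03 and 1.15 for the brightest probe and between 3.92 and 4.70 for the second.

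Rpl22, a large-subunit protein that also binds RNA outside the ribosome, read 12.58, 12.65 and 12.50 in the knockout, against 11.97, 12.07 and 12.27 in WT. The knockout arrays were all higher, and the difference was 1.39-fold (log2 fold change 0.47 ± 0.08, adjusted p = 0.000668). Its paralog Rpl22l1 read 9.96, 10.13 and 9.99 in the knockout, against 10.21, 9.99 and 10.29 in WT. The groups overlapped for Rpl22l1, and it did not pass (log2 fold change -0.14 ± 0.09, adjusted p = 0.373). The difference between the paralogs was not tested.

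Rpl37, a small protein of the large subunit, was lower in the knockout. It read 7.60, 7.71 and 8.01 in the knockout, against 8.45, 8.30 and 8.55 in WT, a 1.58-fold difference (log2 fold change -0.66 ± 0.12, adjusted p = 0.00121). Its second probe was also lower, at 7.61, 7.60 and 7.43 in the knockout and 7.97, 8.09 and 8.03 in WT (adjusted p = 0.00347). Neither probe had overlapping groups. Rpl30, which in yeast regulates its own splicing, read 12.92, 13.11 and 12.95 in the knockout, against 13.25, 13.21 and 13.28 in WT. All knockout arrays were lower, at a log2 difference of -0.25 ± 0.07 (adjusted p = 0.0127), and its second probe gave -0.43 ± 0.09 (adjusted p = 0.00394). Without knockout A or C the brightest Rpl30 probe did not pass, with adjusted p of 0.0634 and 0.0571.

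Rpl31, a large-subunit protein, and Rpl13a, which in human cells also has a role in silencing inflammatory mRNAs, had small differences. Rpl31 read 13.97, 14.04 and 14.16 in the knockout, against 13.70, 13.90 and 13.85 in WT (log2 fold change 0.24 ± 0.07, adjusted p = 0.0207). Its lowest knockout array was only slightly above the highest WT array, and without knockout B, knockout C or WT A the adjusted p was 0.0589, 0.108 and 0.0953. A second Rpl31 probe gave 0.22 ± 0.07 (adjusted p = 0.0478), and 0.0676 to 0.216 without knockout A, knockout C or WT B. Rpl13a read 13.82, 13.80 and 13.87 in the knockout, against 13.73, 13.66 and 13.57 in WT (log2 fold change 0.18 ± 0.06, adjusted p = 0.0489). The groups did not overlap, but leaving out any single array other than WT A gave Rpl13a an adjusted p of 0.0891 to 0.165.

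Rplp2 and Rpl19 had the brightest probes among the 8 large-subunit genes that did not pass. Rplp2, a stalk protein that recruits elongation factors, read 15.91, 15.90 and 15.97 in the knockout and 15.73, 15.97 and 15.89 in WT (log2 fold change 0.06 ± 0.06). Its groups overlapped. Rpl19, a large-subunit protein, read 14.77, 14.86 and 14.86 in the knockout and 14.60, 14.66 and 14.76 in WT. All knockout arrays were higher for Rpl19, but its adjusted p was 0.0597, and 0.0193 without WT C. The other 5 that did not pass (Rpl21, Rpl23, Rpl24, Rpl27 and Rpl38) had log2 fold changes of -0.18 to 0.24. For Rplp0, the base of the same stalk, the probes disagreed. The brightest probe did not pass (log2 fold change -0.17 ± 0.08, adjusted p = 0.136). The second read 8.46, 8.79 and 8.86 in the knockout, against 9.29, 9.28 and 9.54 in WT, and was lower in the knockout (log2 fold change -0.67 ± 0.12, adjusted p = 0.000887).

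Among 11 small-subunit proteins, 4 were higher in the CypD knockout (Rps20, Rps9, Rps3 and Rps19), 3 were lower (Rps13, Rps15a and Rps24) and 4 did not pass, with a median log2 fold change of 0.04. Over both subunits 8 of 25 were higher and 5 were lower, set against 21.8% of named genes in each direction. Under median scaling 5 were higher and 7 were lower, and over all alternatives the counts ran from 4 to 9 higher and from 2 to 7 lower. The lower count was 2 without knockout A or knockout C, and the higher count was 5 without knockout A and 4 without knockout B or knockout C.

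Rps20 and Rps13, both small-subunit proteins, differed most, in opposite directions. Rps20 read 7.74, 8.15 and 8.15 in the knockout, against 7.28, 7.33 and 7.40 in WT, and was 1.60-fold higher (log2 fold change 0.68 ± 0.12, adjusted p = 0.00109). Rps13 read 7.01, 7.25 and 7.62 in the knockout, against 8.07, 8.37 and 8.40 in WT, and was 1.98-fold lower (log2 fold change -0.99 ± 0.15, adjusted p = 0.000216). Neither gene had overlapping groups, though the knockout arrays were spread more than the WT arrays for both. These were also the 2 genes whose probe, averaged over all arrays, lay at or below the 70th percentile of all probes, at the 69.8th percentile in the knockout and the 58.7th in WT for Rps20, and at the 57.4th in the knockout and the 72nd in WT for Rps13. Without background correction Rps20 was 1.38-fold higher and Rps13 was 1.61-fold lower, so the size of both folds rests on a dim level. No detection values were used here, so whether either probe was above background was not tested. Among the 59 genes above the 70th percentile 22 were called, and the share was 48% of named genes there.

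Rps9, a small-subunit protein that contacts the ribosomal RNA core, read 14.66, 14.69 and 14.51 in the knockout, against 14.21, 14.34 and 14.21 in WT. It was 1.29-fold higher with no overlap (log2 fold change 0.36 ± 0.06, adjusted p = 0.00057). Rps3, which lines the mRNA entry channel, read 14.79, 14.79 and 14.92 in the knockout, against 14.51, 14.79 and 14.41 in WT. One WT array reached the level of the knockout, and the log2 fold change was 0.26 ± 0.08 (adjusted p = 0.0346). When any single array other than WT B was left out, the adjusted p of Rps3 was 0.0603 to 0.143.

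Rps19, mutated in human Diamond-Blackfan anaemia, read 15.87, 15.88 and 15.91 in the knockout, against 15.83, 15.65 and 15.70 in WT (log2 fold change 0.16 ± 0.05, adjusted p = 0.0341). The lowest knockout array was just above the highest WT array. A dimmer Rps19 probe read 8.25, 8.20 and 8.25 in the knockout and 8.56, 8.23 and 8.45 in WT, at a log2 difference of -0.18 ± 0.10 (adjusted p = 0.28). Leaving out any single array other than WT A gave the brightest Rps19 probe an adjusted p of 0.0652 to 0.137.

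Rps24, another gene of that anaemia, read 13.06, 13.05 and 13.04 in the knockout, against 13.33, 13.12 and 13.48 in WT (log2 fold change -0.26 ± 0.08, adjusted p = 0.0334). Its second probe was lower too, at 10.90, 10.78 and 10.87 in the knockout and 11.34, 11.29 and 11.26 in WT (adjusted p = 0.000442). Both probes had separate groups, but the brightest did not pass when any single array other than WT B was left out (adjusted p 0.0777 to 0.101). Rps15a, a small-subunit protein, read 9.36, 9.54 and 9.36 in the knockout, against 9.66, 9.71 and 9.81 in WT (log2 fold change -0.31 ± 0.09, adjusted p = 0.024). The groups did not overlap, and without knockout A, knockout C or WT B the adjusted p of Rps15a was 0.0915, 0.0994 and 0.0537.

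Rps14 and Rps6 did not pass. Rps6, the substrate of the S6 kinases, read 15.16, 15.04 and 15.10 in the knockout and 14.96, 15.23 and 15.03 in WT, with a log2 fold change of 0.02 ± 0.07. Rps14, a small-subunit protein, had a log2 fold change of -0.11 ± 0.06. The groups overlapped for both. Rps25 (0.04 ± 0.09) and Rps15 (0.17 ± 0.07) did not pass either, though Rps15 had an adjusted p of 0.0143 without WT C.

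Rps19bp1, which encodes a nucleolar protein that binds Rps19, was lower in the knockout. It read 9.75, 9.64 and 9.74 in the knockout, against 10.34, 10.33 and 10.40 in WT, a 1.56-fold difference (log2 fold change -0.65 ± 0.08, adjusted p = 3.95e-05). Arrays within a group were close, and the groups were well apart. Rpl7l1, a relative of Rpl7, did not pass (log2 fold change -0.19 ± 0.09, adjusted p = 0.143).

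**Figure D2:**
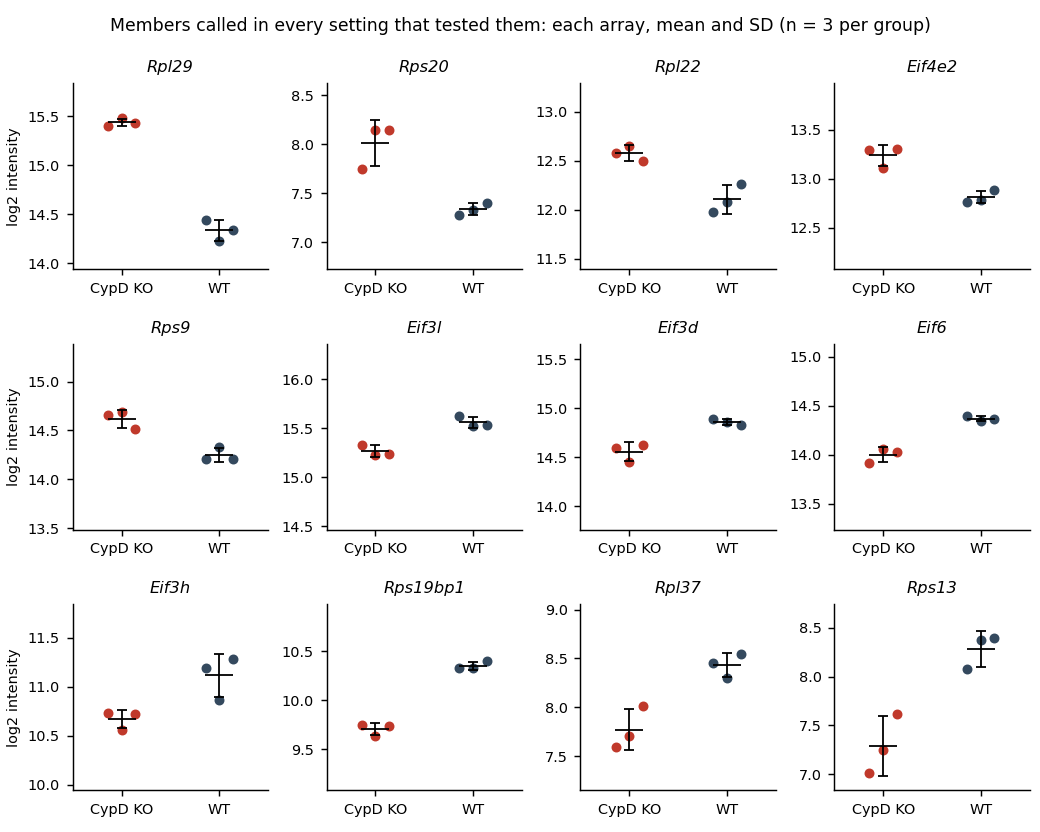
Log2 intensity on each array for the 12 genes that passed the test under every alternative that tested them, with CypD knockout arrays on the left of each panel and WT arrays on the right. Horizontal marks and bars are means and SDs over 3 arrays, and every panel spans the same range of log2 units. The groups are separate in all 12 panels, which the choice of genes by their calls favours.

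The 28 initiation factor genes had 2 higher in the CypD knockout, 7 lower and 19 that did not pass, set against 21.8% of named genes in each direction. Of the 7 lower, 5 (Eif3d, Eif3h, Eif3l, Eif4b and Eif1a) lie on chromosomes 15 and 18. Under median scaling 1 was higher and 10 were lower. The eIF3 complex, the scaffold that holds other factors on the small subunit, had 9 genes tested. Eif3h, Eif3d and Eif3l were lower, Eif3f was higher and 5 did not pass, with a median log2 fold change of -0.13.

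Eif3l, a peripheral subunit of the complex, read 15.33, 15.22 and 15.24 in the knockout, against 15.62, 15.52 and 15.54 in WT (log2 fold change -0.29 ± 0.05, adjusted p = 0.000664). Its second probe gave -0.31 ± 0.06 (adjusted p = 0.00131). Knockout arrays were lower throughout, and the probes had nearly the same fold change. Eif3d, which in human cells can bind the cap of some mRNAs, read 14.60, 14.44 and 14.63 in the knockout, against 14.88, 14.86 and 14.83 in WT (log2 fold change -0.30 ± 0.06, adjusted p = 0.00144). Eif3h, a subunit of the same complex, read 10.73, 10.56 and 10.72 in the knockout, against 11.19, 10.87 and 11.29 in WT (log2 fold change -0.45 ± 0.10, adjusted p = 0.00643). Neither gene had overlapping groups.

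Eif3f, a subunit with the same kind of domain as Eif3h, was higher in the knockout. It read 14.68, 14.84 and 14.80 in the knockout, against 14.62, 14.50 and 14.60 in WT (log2 fold change 0.20 ± 0.06, adjusted p = 0.022). The gap between groups was narrow for Eif3f, and without knockout B, knockout C or WT B the adjusted p was 0.111, 0.0797 and 0.093. Under median scaling it was 0.384, while Eif3b was called lower, which left 4 eIF3 subunits called, all of them lower. Eif3i and Eif3k, the brightest subunits that did not pass, had log2 fold changes of -0.07 ± 0.07 and 0.09 ± 0.08 with overlapping groups. Eif3a (0.30 ± 0.12), Eif3b (-0.21 ± 0.08) and Eif3c (-0.13 ± 0.09) did not pass, and Eif3a had an adjusted p of 0.0147 without knockout A.

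Of 6 genes of the eIF4 group, which binds and unwinds the capped end of the mRNA, Eif4e2 was higher, Eif4b was lower and 4 did not pass. These counts are set against 21.8% of named genes in each direction. The median log2 fold change was 0.25, which includes the brightest probes of Eif4a2 and Eif4g2, both low on WT C. Without WT C those probes gave 0.09 and 0.02, and the group median was not recomputed. Eif4e2 encodes a cap-binding protein that represses translation. It read 13.30, 13.11 and 13.30 in the knockout, against 12.76, 12.79 and 12.88 in WT, and was 1.34-fold higher with no overlap (log2 fold change 0.43 ± 0.07, adjusted p = 0.000424). Its dimmer probe read 9.75, 9.68 and 9.53 in the knockout and 9.74, 9.93 and 9.37 in WT, and did not pass (log2 fold change -0.03 ± 0.13, adjusted p = 0.93). Eif4e3, another cap-binding relative, had a brightest probe that did not pass (log2 fold change 0.24 ± 0.12, adjusted p = 0.188). Its second probe was higher, at 8.43, 8.49 and 8.56 in the knockout and 8.05, 8.08 and 8.12 in WT (adjusted p = 0.0057).

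Eif4b, a cofactor of the helicase Eif4a, read 11.19, 11.06 and 11.19 in the knockout, against 11.42, 11.36 and 11.37 in WT (log2 fold change -0.24 ± 0.07, adjusted p = 0.0335). The groups were separate, but leaving out any single array other than WT C gave an adjusted p of 0.0552 to 0.146. The second Eif4b probe, low on WT C, gave -0.04 ± 0.22 on the log2 scale (adjusted p = 0.945), and of -0.39 (adjusted p = 0.0155) without that array.

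The brightest probes of the helicase Eif4a2 and of Eif4g2, a relative of the scaffold eIF4G, were also low on WT C. The brightest Eif4a2 probe read 12.20, 11.71 and 11.84 in the knockout and 11.66, 11.98 and 10.82 in WT. The low value was WT C alone, and the groups overlapped (log2 fold change 0.43 ± 0.22, adjusted p = 0.212). Without WT C the log2 fold change of Eif4a2 was 0.09 (adjusted p = 0.675), and without WT B it was 0.68 (adjusted p = 0.0312). A second Eif4a2 probe was higher in the knockout at 11.01, 11.01 and 10.95, against 10.66, 10.67 and 10.29 in WT (adjusted p = 0.00517). WT C was again the lowest array, though by less than the 0.5 log2 units used above. When any single array was left out this probe still passed, with log2 fold changes of 0.32 to 0.51.

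The brightest Eif4g2 probe read 11.78, 11.36 and 11.72 in the knockout and 11.47, 11.72 and 10.88 in WT, again with WT C the lowest. Its log2 fold change was 0.26 ± 0.17 (adjusted p = 0.346), and 0.02 (adjusted p = 0.927) without WT C. Another Eif4g2 probe read 10.76, 10.93 and 10.98 in the knockout, against 10.30, 10.45 and 10.70 in WT (log2 fold change 0.41 ± 0.10, adjusted p = 0.0118). These groups were separate, but without knockout B, knockout C or WT A that probe had an adjusted p of 0.0544, 0.0612 and 0.0642. Eif4a1, the main helicase of the group, did not pass (log2 fold change 0.11 ± 0.07, adjusted p = 0.332).

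**Figure D3:**
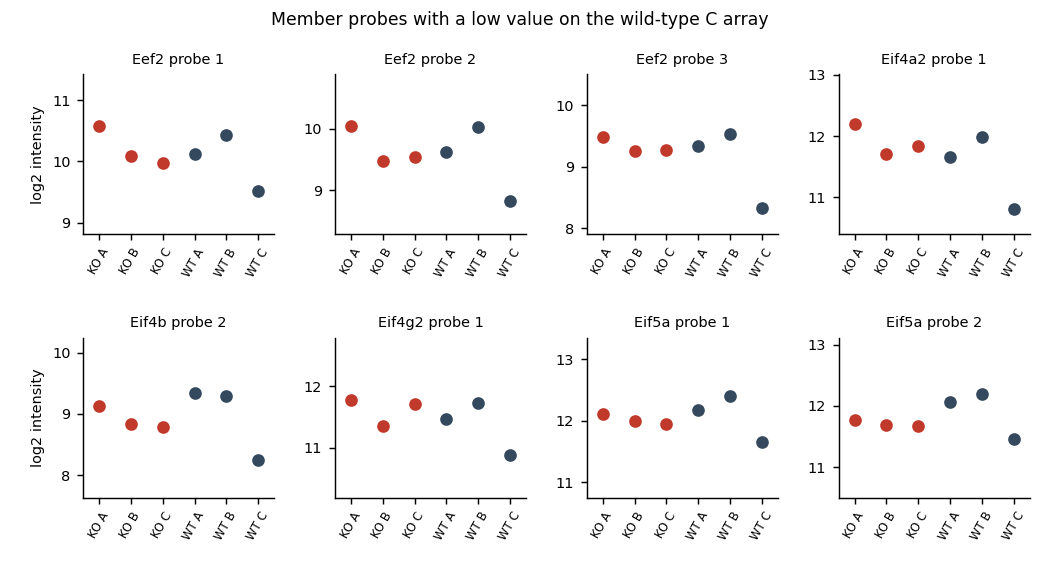
Log2 intensity on each of the 6 arrays for the 8 probes whose WT C value lay more than 0.5 log2 units below both other WT arrays, knockout arrays first. WT C is the lowest point in all 8 panels.

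The eIF4E-binding proteins hold back cap-dependent initiation until mTOR phosphorylates them. Eif4ebp2 read 10.15, 9.69 and 9.60 in the knockout, against 10.28, 10.48 and 10.11 in WT, and was lower (log2 fold change -0.48 ± 0.13, adjusted p = 0.0224). Knockout A lay among the WT arrays, and without knockout B, knockout C, WT A or WT B the adjusted p of Eif4ebp2 was 0.0641 to 0.117. Eif4ebp1 read 13.55, 13.93 and 13.74 in the knockout and 13.55, 13.72 and 13.96 in WT, with group means of 13.74 in both.

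The eIF2 pathway delivers the initiator tRNA, and eIF2B recharges eIF2 with GTP. None of its 6 genes tested (Eif2s2, Eif2b1, Eif2b4, Eif2b5, the kinase Eif2ak2 and Eif2d, which binds tRNA outside eIF2) passed by limma, and 0 had an unadjusted p under 0.05. Of all named genes 43.6% passed, and the share at an unadjusted p under 0.05 was not counted. The log2 fold changes of the 3 eIF2B subunits ranged from -0.11 to 0.05. Eif2ak2, the kinase PKR that is activated by double-stranded RNA, read 12.35, 12.62 and 12.45 in the knockout and 12.27, 12.34 and 12.43 in WT, with overlap (log2 fold change 0.12 ± 0.08). Eif2s2, the beta subunit of eIF2, had a log2 fold change of -0.13 ± 0.09, and Eif2d had -0.15 ± 0.08.

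Eif6 keeps free large subunits from joining small ones. It read 13.91, 14.06 and 14.03 in the knockout, against 14.40, 14.34 and 14.36 in WT, and was 1.29-fold lower (log2 fold change -0.37 ± 0.06, adjusted p = 0.000244). Its second probe was lower as well (log2 fold change -0.42 ± 0.09, adjusted p = 0.00539), and neither probe had overlapping groups. Eif1a, which promotes scanning for the start codon, read 13.60, 13.55 and 13.53 in the knockout, against 13.80, 13.75 and 13.68 in WT (log2 fold change -0.18 ± 0.06, adjusted p = 0.0343). The groups were separate, but Eif1a did not pass when any single array other than WT C was left out (adjusted p 0.0566 to 0.126). Eif1ad, a relative of Eif1a, read 10.68, 10.38 and 10.41 in the knockout and 10.80, 10.82 and 10.64 in WT, with overlap (log2 fold change -0.26 ± 0.09, adjusted p = 0.0666). Its adjusted p was 0.018 without knockout A and 0.0238 without WT C.

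Eif5, the GTPase activator of eIF2, and Eif5a, which helps ribosomes through difficult peptide bonds, did not pass in the full comparison. Eif5 read 14.91, 14.94 and 14.80 in the knockout and 15.09, 15.17 and 14.91 in WT (log2 fold change -0.17 ± 0.07, adjusted p = 0.0893). Eif5a read 12.11, 11.99 and 11.95 in the knockout and 12.18, 12.40 and 11.66 in WT (log2 fold change -0.06 ± 0.14, adjusted p = 0.827). For Eif5a the WT arrays lay on both sides of the knockout arrays. Without WT C, Eif5 gave -0.25 (adjusted p = 0.00666) and Eif5a gave -0.27 (adjusted p = 0.024). The second Eif5a probe gave -0.19 ± 0.14 (adjusted p = 0.429) with all arrays and -0.41 (adjusted p = 0.000758) without WT C.

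Of 5 elongation factor genes 1 was lower in the knockout and 4 did not pass, set against 21.8% of named genes called lower. Eef1e1, a scaffold of the multi-synthetase complex rather than an elongation factor in its known role, read 12.83, 12.76 and 12.82 in the knockout, against 13.02, 13.12 and 12.94 in WT (log2 fold change -0.22 ± 0.06, adjusted p = 0.0245). The groups were separate, but when any single array other than WT C was left out the adjusted p of Eef1e1 was 0.0532 to 0.108. Eef1d, an exchange factor of eEF1A, had probes that disagreed. The brightest did not pass (log2 fold change -0.09 ± 0.06, adjusted p = 0.369). The second was lower, at 12.16, 12.20 and 12.04 in the knockout and 12.53, 12.52 and 12.64 in WT (log2 fold change -0.43 ± 0.07, adjusted p = 0.000453).

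Eef2 moves the ribosome by 1 codon, and Eef2k inactivates it by phosphorylation. The brightest Eef2 probe read 10.58, 10.09 and 9.98 in the knockout and 10.12, 10.43 and 9.52 in WT. The groups overlapped (log2 fold change 0.19 ± 0.19, adjusted p = 0.583), and without WT C the log2 fold change of Eef2 was -0.06 (adjusted p = 0.841). The other Eef2 probes gave 0.19 ± 0.23 and 0.27 ± 0.23 with all arrays, and -0.14 and -0.10 without WT C, and did not pass either way. Eef2k read 8.30, 8.54 and 8.22 in the knockout and 8.14, 8.37 and 8.22 in WT, and Eef2kmt, the methyltransferase of eEF2, had a log2 fold change of -0.13 ± 0.12. Neither passed.

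Several probes were available for 24 of the 61 genes. In 7 of these every probe was called, in 9 none was, and in 8 some probes were called and others were not (Eef1d, Eif4a2, Eif4b, Eif4e2, Eif4e3, Eif4g2, Rplp0 and Rps19). Both Eif5a probes are among those not called, and both passed without WT C. In 0 genes were probes called in opposite directions.

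**Figure D4:**
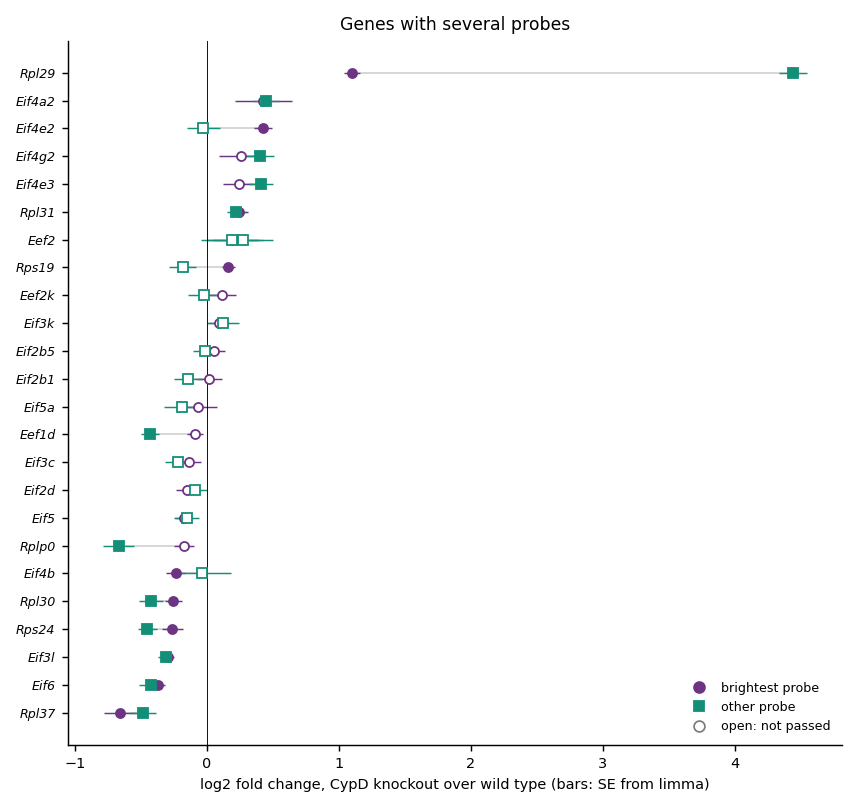
Log2 fold change (CypD knockout over WT) of every probe of the 24 genes with several probes, with circles for the brightest probe, squares for other probes, bars for the SE and open symbols for probes that did not pass. Most pairs lie close together, and Rpl29 has the widest gap, with probes at 1.10 and 4.44.

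Of the 14 lower calls 7 lay on chromosome 15, a pattern noticed after the values were seen and given as a description. Of 8 genes there (Eef1d, Eif3d, Eif3h, Eif3l, Eif4b, Rpl30, Rpl37 and Rps19bp1), 7 were called lower and all 8 had a negative log2 fold change, with a median of -0.30. Named genes of chromosome 15 as a whole had the same shift, as 58% of 362 were called lower and their median was -0.30. On chromosome 18, 64.8% of 216 named genes were called lower, with a median of -0.35, and Eif1a was lower there while Rps14 did not pass. On the other 18 chromosomes the medians ran from -0.15 to 0.17, and 11.9% to 31.7% of named genes were called lower. The share of the genes described here on chromosome 15 is thus to be read against 58% and not against 21.8%.

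The 51 genes on other chromosomes had 10 called higher and 6 lower, with a median of 0.04. Their 16 calls were 31.4% of the 51, set against 41.5% of named genes on those chromosomes, and the 6 lower were 11.8%, set against 18.6%. Chromosome 7 held 12 of the genes, more than any other chromosome. Of these, 5 were higher (Rpl13a, Rps3, Rps9, Rps19 and Eif3f) and 2 were lower (Rps13 and Rps15a). Among named genes of chromosome 7, 26.4% were higher and 14.1% were lower. The cause of the differences between chromosomes was not tested.

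**Figure D5:**
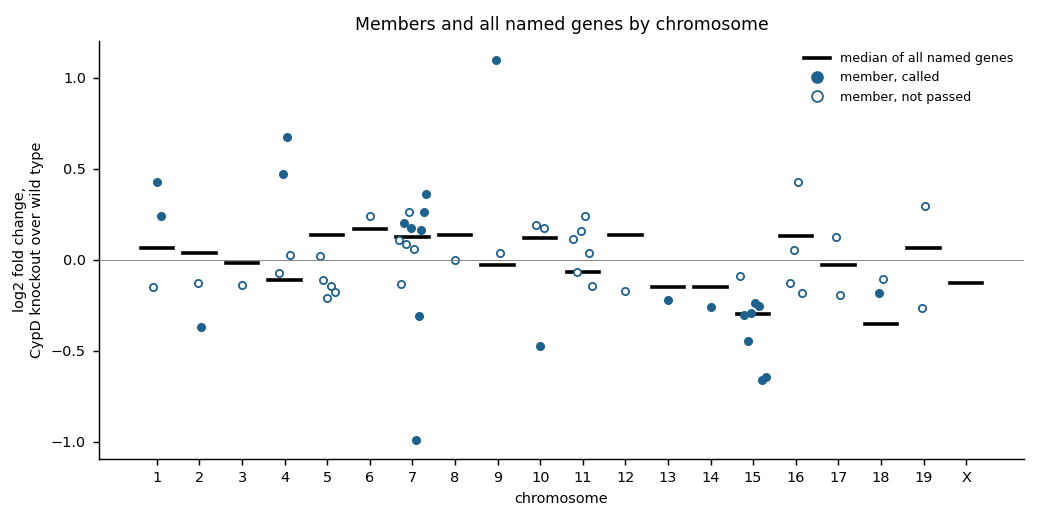
Log2 fold change (CypD knockout over WT) of the 61 genes by chromosome, with filled points for called genes and a black bar for the median of all named genes on that chromosome. The bars of chromosomes 15 and 18 are the lowest, at -0.30 and -0.35, and all 8 points on chromosome 15 are below 0.

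Mitochondrial ribosomal proteins, which serve the separate ribosomes of the organelle, are set beside these genes for comparison. Of 44 tested, 5 were higher in the knockout and 8 were lower, with a median log2 fold change of -0.10, set against 21.8% of named genes in each direction. The difference between mitochondrial and cytosolic ribosomal proteins was not tested.

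Other genes of the translation pathway were counted from written lists. These lists were chosen with earlier results of these data known, so their counts are a description and not a test of the lists. Beside them stands the 21.8% of named genes called in each direction. Ribosome biogenesis factors had 44 of 69 genes tested, of which 0 were higher and 13 were lower in the knockout by limma. Their median log2 fold change was -0.21, and that of all named genes was 0.01. Of the 44, 38 had a negative value, and the share of named genes with a negative value was not counted. At an unadjusted p under 0.05 the counts were 0 higher and 26 lower. The share of named genes at that threshold was not counted, and the 21.8% does not apply to it. Of the 13, 11 lay outside chromosomes 15 and 18. The lower count ran from 7 without an intensity trend to 20 under median scaling. Bop1, which processes the large-subunit RNA and lies on chromosome 15, read 13.05, 13.01 and 12.99 in the knockout, against 13.67, 13.64 and 13.55 in WT (log2 fold change -0.61 ± 0.06, adjusted p = 3.39e-06). Utp6, a small-subunit processing factor, and Polr1e, a subunit of RNA polymerase I, had log2 fold changes of -0.36 ± 0.07 and -0.37 ± 0.08. The knockout arrays were below the WT arrays for all 3 genes.

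Cytosolic aminoacyl-tRNA synthetases and their partners, which load tRNAs, had 15 of 23 genes tested. By limma 0 were higher and 8 were lower, with a median log2 fold change of -0.23. At an unadjusted p under 0.05 there were 0 higher and 10 lower, again with no share of named genes counted. Eef1e1 is counted here too, and 5 of the 8 lay outside chromosomes 15 and 18. The lower count was 5 without knockout A. Nars, for asparagine, on chromosome 18, read 12.19, 12.34 and 12.26 in the knockout, against 12.94, 13.10 and 12.86 in WT (log2 fold change -0.70 ± 0.07, adjusted p = 8.49e-06). Lars, for leucine, also on chromosome 18, had a log2 fold change of -0.59 ± 0.05, and Tars, for threonine, on chromosome 15, of -0.54 ± 0.07. No group overlapped for these probes, though a second Tars probe did not pass (adjusted p = 0.0574).

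Factors of termination, recycling and poly(A) binding had 13 of 20 genes tested, with 3 higher and 4 lower, and Eif2d is counted here too. The lower count ran from 2 (without knockout A, without WT C, with no filter or with no intensity trend) to 6 (under median scaling or with a filter at the 70th percentile). Paip1, which joins poly(A)-binding protein to the initiation complex, had the largest difference. It read 10.66, 10.69 and 10.65 in the knockout, against 7.76, 7.84 and 7.25 in WT, and was 8.30-fold higher (log2 fold change 3.05 ± 0.13, adjusted p = 8.72e-10). In WT the probe averaged at the 64.8th percentile among all probes, so the size of the Paip1 fold rests on a dim level. Mcts1, a partner in ribosome recycling, was higher (log2 fold change 0.58 ± 0.06), and Etf1, the release factor that reads stop codons, was lower (-0.45 ± 0.06, on chromosome 18).

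The list of mTOR and S6 kinase signalling had 22 of 35 genes tested, with 1 higher and 10 lower. Of the 10, 6 lay outside chromosomes 15 and 18. The median log2 fold change was -0.20 over the list and -0.08 outside those chromosomes. The lower count was 6 without knockout C, WT A or WT B. Ddit4, a stress-induced inhibitor of mTOR complex 1, read 9.54, 9.65 and 9.74 in the knockout, against 10.44, 10.71 and 10.78 in WT, and was 2.01-fold lower (adjusted p = 4.94e-06). Mtor, the kinase itself, read 10.50, 10.60 and 10.63 in the knockout, against 11.26, 11.18 and 11.33 in WT (log2 fold change -0.67 ± 0.08, adjusted p = 1.85e-05). Deptor, an inhibitor within the complexes, on chromosome 15, had a log2 fold change of -0.94 ± 0.11. The kinase, Ddit4 and Deptor were thus lower in the knockout, with separate groups for each. The other lower genes were Rps6ka5, Myc, Rictor, Rps6ka3, Castor1, Larp4 and Mknk1. Rptor, Mlst8, Akt1s1, Tsc2 and the S6 kinase gene Rps6kb2 were among those that did not pass. As the list holds the kinase together with its inhibitors, its counts give no direction of signalling, and signalling was not tested. The 1 higher gene of the list was Tsc1 (log2 fold change 0.38 ± 0.11, adjusted p = 0.0267). Over all alternatives the higher count ran from 0 to 1.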

How the data were processed

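Total RNA of MEF cultures (250 ng labelled with biotin) was hybridised to Illumina bead arrays of 45281 probes, per the labels' protocols. The authors deposited linear probe intensities for each of 6 arrays, with no detection p-value, and a processed intensity table of 12534 probes. Per the submitters' processing notes, the software was BeadStudio 3.0. The listed probes had a highest signal of at least 273 and at least 1.20 times the lowest; 10653 had 1 gene symbol, 5 had several and the rest had none, and 10643 were matched through Entrez identifiers to RefSeq GRCm38.p6.

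Raw intensities were corrected with normexp (offset 50), log2-transformed, then quantile-normalized, with limma 3.58.1 (R 4.3.3). Probes above the 40th percentile of mean intensity were kept (27168 probes), the setting for files without detection values; the offset compresses folds of dim probes. Groups were compared with lmFit and eBayes (intensity trend), two-sided, with Benjamini-Hochberg adjustment over all probes kept, and called at an adjusted p under 0.05. A gene was represented by its brightest probe. Errors of log2 fold changes are SEs, and the number of arrays limits the precision. The procedure was tested on simulated data with independent noise for each probe. Those data held no array with many low probes and no shift of whole chromosomes, so the test does not speak to either. Same-letter deviations correlated at 0.10, -0.09 and 0.08, so the letters were not used as pairs.

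Named were, per role, up to 4 called genes in each direction by lowest p and 2 of the brightest that did not pass; every gene called at 1.5-fold or more; every gene with disagreeing probes; Rpl29, Eif4ebp1, Eif2ak3, Eef2k, Eef1a1 and Eef1a2; and up to 3 called genes per pathway list. The genes and lists were chosen with earlier results of these data known. For the mTOR list the other called genes and some that did not pass were added after the values were seen. Alternatives changed the background correction, offset, normalization, filter, moderation, array weights, block, probe choice and arrays.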

Additional observations from a re-analysis of the deposited data

How the results depend on the processing

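The count of 24 called genes (10 higher, 14 lower in the CypD knockout) ranged from 21 to 27 without background correction, with an offset of 16, under median scaling, cyclic loess, the authors' processed table, no filter, a filter at the 70th percentile, array weights and the probe of highest variance. Without an intensity trend 13 were called, 5 higher and 8 lower. Median scaling gave 6 higher, with a median log2 fold change of -0.12, and the probe of highest variance gave a median of -0.11. With the replicate letter as a block 24 genes were called, 9 higher and 15 lower, with Rpl13a lost (adjusted p = 0.0694) and Eif5 gained (adjusted p = 0.0335); 5273 probes were called in all. Leaving out 1 array at a time gave 12 to 25 called genes, 5 to 9 higher and 7 to 16 lower, a median of -0.082 to -0.020, and 4083 to 5897 called probes; 14 genes were called without knockout B and 12 without knockout C, and the lower count was 9 without knockout A, knockout B, WT A or WT B and 7 without knockout C. Without the genes on chromosomes 15 and 18, an alternative chosen after seeing the data, 6 were lower and the median was 0.039. Among the 24 called genes only Rps19 changed sign, at -0.18 (adjusted p = 0.28) with its probe of highest variance; with the brightest probe, 9 of the 37 genes that did not pass changed sign under some alternative. Of the 24 called genes 12 passed under every alternative that tested them; Rps13 and Rps20 were not tested at the 70th percentile. The cause of these changes was not tested. With no detection values used here, signal over background limits what can be said of dim probes.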
